A study of Mus musculus with 6 samples.

Results

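The acyl-CoA thioesterases (Acot genes) were examined in colonic epithelium of mice lacking miR-31, a microRNA, and of wild-type mice. The set holds 9 genes, Acot1, Acot2, Acot4, Acot7, Acot8, Acot9, Acot11, Acot12 and Acot13, of 23462 genes with a symbol on the array. They were found by matching the RefSeq accession of every non-control probe to the mouse gene table, which gave 13 probes for the 9 genes. The family was picked with the difference between knockout and wild type already known, mainly that of Acot12. All values of its members in that comparison are therefore a description and carry no test.

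The samples were colonic epithelium of 3 male miR-31 knockout mice and of 3 male wild-type mice, with 1 one-colour Agilent array for each mouse. Cells had been separated by flow into TRIzol, and labelled cDNA was made from linearly amplified RNA. Strain, age, the flow gate and the way the knockout was made are not given in the sources used here. No probe measured Mir31 or its host transcript (0 probes), so the deletion could not be checked. All arrays lay on 1 slide, with the knockout arrays in one row and the wild-type arrays in the other, so row and genotype cannot be told apart. By the animal numbers in the sample titles, replicate 3 of each group stood apart from replicates 1 and 2, which is called the animal number series below. The share of probes well above background ran from 66.6% on knockout replicate 1 to 75.6% on wild-type replicate 2, and 0 non-control spots were saturated. All 11 colonic epithelium markers looked for, among them Epcam, Cdh1, Cdx2, Muc2 and Slc26a3, were well above background on all 6 arrays. Markers of other cell types gave signal in part. Above background on all arrays were 6 of 8 fibroblast and smooth muscle markers, 4 of 6 neuron and glia markers and 1 of 4 endothelial markers (Pecam1). Cdh5, Kdr, Tie1, Pdgfra, Sox10 and S100b were so on none. Given the share of all probes above background, these counts do not show that such cells were present.

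Acyl-CoA thioesterases cut the bond between a fatty acid and coenzyme A, returning a free acid and free coenzyme A. They oppose the acyl-CoA synthetases and so set how much activated fatty acid is open to oxidation, lipid synthesis or signalling, in the cytosol, the mitochondrion and the peroxisome. Mouse Acot1, Acot2 and Acot4 belong to the type I enzymes, whose closely related genes lie side by side on chromosome 12, whereas the other members are type II enzymes with a different fold. Several Acot genes, Acot1 above all in liver, are known targets of the fatty acid receptor PPARα. Colonocytes take much of their energy from fatty acids, chiefly butyrate made by gut bacteria.

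The microRNA missing from the knockout mice is printed because its loss is the designed difference between the groups. Both mature strands are given 5′ to 3′ from RefSeq (GRCm38.p6, minus strand of chromosome 4), with the seed, bases 2 to 8, in capitals.
mmu-miR-31-5p: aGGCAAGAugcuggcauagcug
mmu-miR-31-3p: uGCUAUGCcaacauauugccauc
Transcript sequences were not used here, so matches to these seeds in Acot transcripts were not searched.

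Of the 9 members, Acot12 alone differed strongly between knockout and wild type, and the others lay within 0.37 log2 units of no difference by every probe. In the fit across all features, 1 of the 7 members tested passed an adjusted p of 0.05 (limma), namely Acot12, on the higher side, with 0 lower. The same threshold was passed by 0.208% of the 27916 features tested, 0.147% higher and 0.0609% lower in knockout, but since the family was chosen on this comparison nothing is read from that contrast. The median log2 change was -0.03 over the 7 members tested and -0.06 over all features. Acot2 and Acot8 were not tested, because too many of their spots had been marked as uneven by the extraction software. Of the 78 spots of member probes 22 were so marked, and the levels below include them unless stated. Levels are log2 signal relative to the 75th percentile of the array, changes are knockout minus wild type in log2 units, and probes of different genes are not compared in level.

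**Figure D1:**
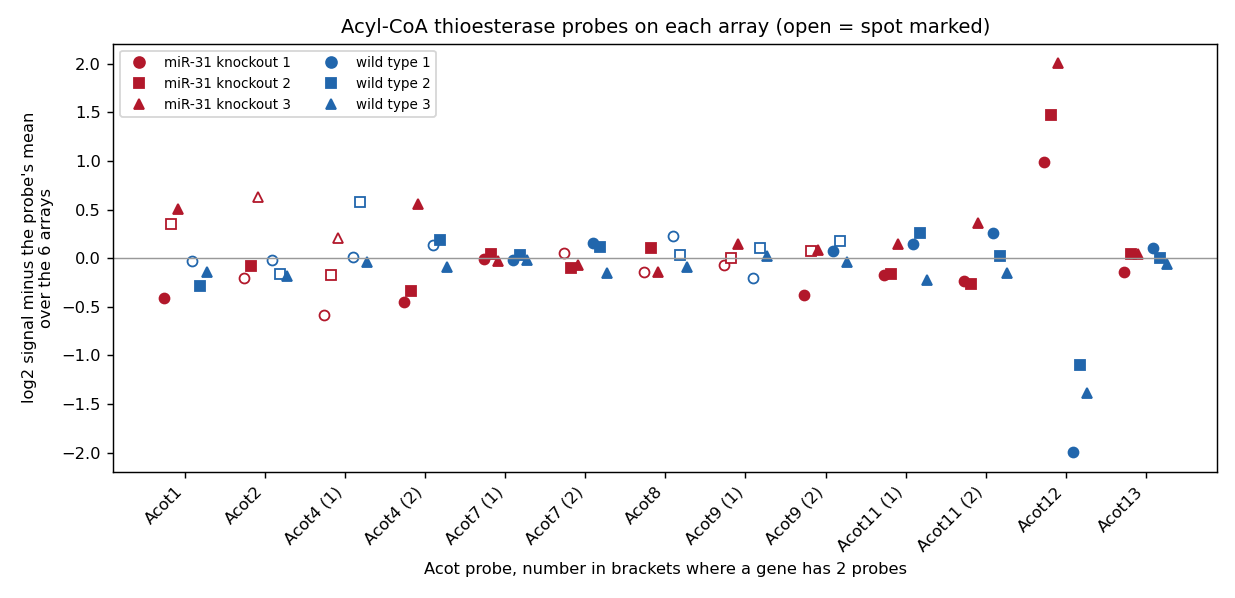
Log2 signal of each of the 13 Acot probes on each array, minus the mean of that probe over the 6 arrays (vertical axis), with the miR-31 knockout arrays (red) left of the wild-type arrays (blue). Open symbols are spots marked as uneven, (1) is the brighter and (2) the dimmer probe of a gene. Acot12 is the only probe whose groups do not overlap, which held for 16.3% of all features. Knockout replicate 3 is the highest array for 6 of the 13 probes, against 11.9% of all features.

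Acot12 encodes a cytosolic thioesterase that acts on acetyl-CoA and is best known from liver. Its only probe gave 97.9, 120 and 190 units of processed intensity in knockout replicates 1 to 3, against 10.4, 20.2 and 17.8 units in wild-type replicates 1 to 3. All 3 knockout arrays were well above background and none of the 3 wild-type arrays was, so in wild type only an upper bound is known. On the log2 scale the knockout arrays were at -5.18, -4.70 and -4.17, and the wild-type arrays at -8.17, -7.27 and -7.56. The lowest signal of any spot well above background was -6.45, -7.13 and -7.13 on the 3 wild-type arrays, above the Acot12 spot on each. With the wild-type arrays set at those signals, Acot12 was 4.65-fold higher in knockout epithelium. That figure is not a strict minimum, because those are only the lowest signals that passed. The normexp setting described below gave a smaller change, 1.15 in log2.

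The measured log2 change of Acot12 was 2.98 ± 0.32 (SE, n = 3 and 3), with means of -4.68 ± 0.50 in knockout and -7.67 ± 0.46 in wild type (SD, n = 3 each). The knockout signal was itself dim for this array, where the 75th percentile of intensity lay between 3005 and 3539 units. Acot12 met the requirement of 3 arrays well above background through its 3 knockout arrays alone. It therefore had to differ in order to enter the tested set. It no longer passed the threshold without the filter on dim probes, or without knockout replicate 2 or any one of the wild-type replicates. With 1 array left out its log2 change lay between 2.73 and 3.23. A background correction that adds an offset (normexp), followed by quantile scaling, gave a smaller log2 change, 1.15 ± 0.16 (SE, n = 3 and 3).

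The start region of Acot12 is printed because this is the member that was detected in 1 group only. RefSeq places it at chr13:91741271-91741570 (GRCm38.p6, plus strand), from 250 bases before to 50 after a transcript start. Capitals mark the nuclear receptor half-site AGGTCA, here read on the minus strand.
Acot12 start region: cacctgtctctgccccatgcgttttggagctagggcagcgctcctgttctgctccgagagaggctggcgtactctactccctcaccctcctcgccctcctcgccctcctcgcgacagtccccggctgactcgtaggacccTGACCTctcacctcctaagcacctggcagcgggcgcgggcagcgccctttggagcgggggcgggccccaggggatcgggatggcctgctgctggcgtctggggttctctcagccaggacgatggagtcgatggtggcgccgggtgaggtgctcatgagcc
GC bases make up 68.0% of this window, against a median of 52.7% over 32851 RefSeq start regions of the same length. AGGTCA on either strand was found in 16.3% of those regions, and in those of 2 members, Acot12 and Acot4. The DR1 element, an exact direct repeat of the half-site with 1 base between, which overlaps the half-site search, was found in 0.04% of all regions and in no member's region. A TATAAA box, searched on both strands, was present in 13.6% of all regions and was not found in the Acot12 window. Windows were at hand for 8 of the 9 members. A match of letters is a description of sequence and not a binding site.

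The genes whose arrays followed Acot12 most closely were sought among 11006 named genes by the root mean square difference of log2 signal, each gene centred on its mean over the 6 arrays. The nearest was Cma2, a mast cell chymase gene, at 0.46 log2 units, with -2.43, -2.10 and -2.44 in knockout and -5.28, -5.37 and -4.77 in wild-type arrays. F2r, the thrombin receptor gene, lay at 0.46, with -1.97, -1.51 and -1.39 in knockout and -4.21, -4.72 and -4.05 in wild-type arrays. Ugt8a, a galactosyltransferase gene of sphingolipid synthesis, lay at 0.46, with -3.12, -2.09 and -0.83 in knockout and -5.86, -4.11 and -4.51 in wild-type arrays. Since the wild-type Acot12 spots were not above background, these distances rest on values known only as bounds there, and their order among the 3 genes is not settled. Each of these 3 genes was well above background on all 6 arrays, unlike Acot12. None had overlapping groups, but they were chosen for closeness to Acot12, whose own groups did not overlap. Their separation therefore follows largely from that choice and is not a separate result. F2r lies on chromosome 13 like Acot12, 28 tested genes further along. The 5 tested genes on either side of Acot12 had log2 changes between -0.35 and 0.55 and none passed the threshold (limma). The nearest on each side, 4833422C13Rik and Zcchc9, were at -0.35 ± 0.14 and 0.01 ± 0.15 (SE, n = 3 and 3).

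**Figure D2:**
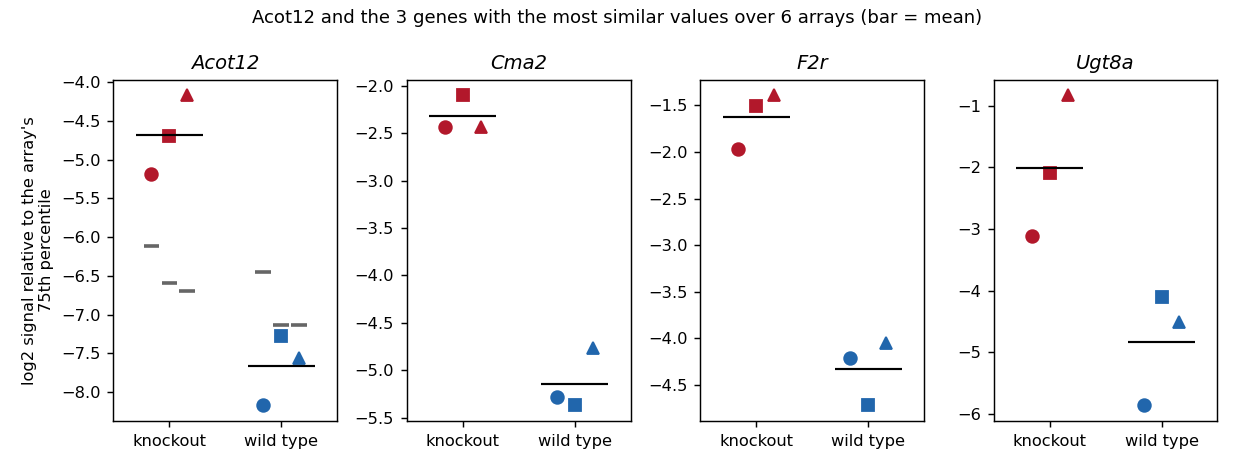
Log2 signal relative to the 75th percentile of the array for Acot12 and for Cma2, F2r and Ugt8a, with knockout arrays (red) left of wild-type arrays (blue). Circles, squares and triangles are replicates 1, 2 and 3, black bars are group means, and grey marks in the Acot12 panel give the lowest signal well above background on that array. Each panel has its own vertical scale. The 3 wild-type Acot12 points lie below their grey marks.

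Markers of cell types that could carry Acot12 were read beside it. Of 8 hepatocyte markers on the array, 6 were well above background on all arrays, and Ahsg was so on no knockout array and only 1 wild-type array. The summed linear signal of the 7 measured markers was 3.15 to 3.65 times the 75th percentile in knockout and 2.30 to 2.42 times in wild-type arrays. Afm, the vitamin E-binding protein afamin, accounted for that order: without it the sums were 1.44 to 1.97 in knockout and 2.11 to 2.20 in wild type. Afm was at 0.91, 0.77 and 0.43 in knockout and -2.10, -2.21 and -2.46 in wild type, a log2 change of 2.96 ± 0.17 (SE, n = 3 and 3) that passed (limma adjusted p = 0.00158). As the lists were chosen with earlier results of these data known, that call is a description too. Alb was at -1.82, -2.20 and -2.48 in knockout and -2.20, -2.39 and -3.11 in wild type, with overlapping groups. Apoa2 stood at -0.57 ± 0.15 (SE, n = 3 and 3) and Ttr at -0.67 ± 0.26 (SE, n = 3 and 2) in log2 change, and neither passed (limma adjusted p = 0.28 and 0.44).

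Among 9 leukocyte markers, 6 were well above background on all arrays, and Adgre1 was so on no knockout array and only 1 wild-type array. Their 7 measured members summed to 19.1 to 21.1 in knockout and 17.2 to 20.5 in wild type, on the same linear scale. Itgam made up most of these sums, and the other 6 summed to 1.22 to 1.54 in knockout and 1.05 to 1.44 in wild type, which overlap. Of the 7 markers, 6 had a log2 change above 0, with a median of 0.18. Cpa3, the carboxypeptidase of mast cells, was at -5.28, -4.56 and -4.41 in knockout and -6.96, -7.21 and -6.50 in wild type, and it was well above background on 3 of 3 knockout arrays but 1 of 3 wild-type arrays. Its measured log2 change of 2.14 ± 0.28 (SE, n = 3 and 3) rests largely on wild-type spots known only as bounds, and it did not pass (limma adjusted p = 0.0519). The part of any such cells in the Acot12 signal was not tested. In RNA pooled from many cells, more cells of a type and more RNA per cell cannot be told apart.

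The chromosome 12 members Acot1, Acot2 and Acot4 did not separate the genotypes by any probe, and knockout replicate 1 was the lowest array for each of their 4 probes. Acot1, the cytosolic long-chain enzyme, was at 0.05, 0.82 and 0.97 in knockout replicates 1 to 3 and at 0.44, 0.18 and 0.32 in wild-type replicates 1 to 3. The knockout arrays held both its lowest and its highest value. Its log2 change was 0.26 ± 0.33 (SE, n = 2 and 2) without the marked spots of knockout replicate 2 and wild-type replicate 1. Leaving out knockout replicate 1 gave 0.72, and leaving out knockout replicate 3 gave -0.20, each resting on 1 unmarked knockout array, so the sign depended on which array remained.

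Acot2 is the mitochondrial counterpart of Acot1. It was at -0.17, -0.05 and 0.66 in knockout and at 0.01, -0.13 and -0.15 in wild-type replicates 1 to 3. Knockout replicate 3 was the only array clearly apart, at 5400 units of intensity against 2840 to 3150 on the other five. Its spot was marked as uneven there, as were those of knockout replicate 1 and wild-type replicates 1 and 2. With all spots kept the log2 change was 0.24 ± 0.24 (SE, n = 3 and 3).

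Acot4, a peroxisomal enzyme that in mouse acts on succinyl-CoA, had a pair of probes. The dimmer one was at -2.66, -2.55 and -1.66 in knockout and at -2.08, -2.03 and -2.30 in wild type, again with knockout replicate 3 highest and the other knockout arrays lowest. Its log2 change was -0.13 ± 0.32 (SE, n = 3 and 2). The brighter probe, with 5 of its 6 spots marked, was at -1.51, -1.10 and -0.72 in knockout and -0.91, -0.34 and -0.96 in wild type. There wild-type replicate 2 was highest, so the probes agree on knockout replicate 1 as the lowest array but differ on the highest.

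The spread within the knockout group was wider than within wild type for these genes. The SD between arrays was 0.49 in knockout and 0.13 in wild type for Acot1, 0.45 and 0.09 for Acot2, and 0.55 and 0.14 for the dimmer probe of Acot4 (n = 3 each). These were the 3 of 13 member probes whose knockout SD exceeded the wild-type SD by over 3 times, which held for 12.0% of all features. Knockout replicate 3 was the highest array for 6 of the 13 member probes, against 11.9% of features. Knockout replicate 1 was the lowest for 7 of them, against 24.7%, and it also had the lowest share of probes above background. These shares are given as a description, since probes of 1 gene are not independent. Acot1 and Acot2 are near copies in their coding sequence, and probe sequences were not used here, so signal shared between paralogs cannot be told apart.

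The start regions of Acot1 and Acot2 are printed because both genes were highest on the same array. They lie at chr12:84009252-84009551 and chr12:83987611-83987910 (GRCm38.p6, plus strand, RefSeq), and AGGTCA occurs in neither, so there are no capitals.
Acot1 start region: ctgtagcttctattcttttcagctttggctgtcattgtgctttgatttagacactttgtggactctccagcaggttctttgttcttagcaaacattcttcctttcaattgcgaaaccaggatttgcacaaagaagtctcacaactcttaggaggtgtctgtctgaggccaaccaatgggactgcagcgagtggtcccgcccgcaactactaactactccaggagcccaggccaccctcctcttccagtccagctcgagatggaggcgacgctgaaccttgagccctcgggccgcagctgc
Acot2 start region: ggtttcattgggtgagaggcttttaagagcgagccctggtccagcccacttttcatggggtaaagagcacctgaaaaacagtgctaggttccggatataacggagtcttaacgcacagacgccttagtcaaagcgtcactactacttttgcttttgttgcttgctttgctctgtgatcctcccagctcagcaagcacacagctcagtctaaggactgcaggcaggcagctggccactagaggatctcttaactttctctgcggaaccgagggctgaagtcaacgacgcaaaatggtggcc
Aligned end to end, the Acot1 and Acot2 windows shared 55.3% of their 300 bases, about the 56.7% shared by the windows of Acot1 and Acot12. Each holds 1 CCAAT box, a motif found on either strand in 37.4% of all start regions.

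Among the type II enzymes other than Acot12, Acot7 and Acot13 differed little between arrays. Acot7, a long-chain enzyme abundant in brain, was at 2.88, 2.93 and 2.86 in knockout and at 2.87, 2.92 and 2.87 in wild type by its brighter probe. All 6 arrays lay within a narrow band, and the log2 change was 0.01 ± 0.11 (SE, n = 3 and 3). Its other probe, for another transcript accession, was at -0.12 ± 0.15 (SE, n = 2 and 3). Acot13, a long-chain enzyme found at mitochondria, was at 2.53, 2.71 and 2.71 in knockout and 2.77, 2.67 and 2.61 in wild type. Groups overlapped here too, with a log2 change of -0.03 ± 0.12 (SE, n = 3 and 3).

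Acot11, which carries a lipid-binding START domain as Acot12 does and is known for limiting heat production in brown fat, was at 1.31, 1.32 and 1.62 in knockout and 1.63, 1.74 and 1.25 in wild type by its brighter probe. The log2 change was -0.12 ± 0.17, and -0.08 ± 0.21 by the other probe (SE, n = 3 and 3). The other probe was highest on knockout replicate 3, at 0.31 against -0.32 to 0.20 on the remaining arrays. The brown fat gene Ucp1 and the adipocyte gene Cfd were above background on no array. Plin1 and Fabp4 were so on no knockout array and on only 1 wild-type array each. Of 7 adipocyte markers, 3 were well above background on all arrays, and those 3 summed to 0.335 to 0.364 in knockout and 0.357 to 0.415 in wild type. Acot11 and Acot7 share chromosome 4 with Mir31, with 51 and 583 tested genes between.

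Acot9, a mitochondrial enzyme, was at 0.79, 0.86 and 1.01 in knockout and at 0.66, 0.97 and 0.88 in wild type by its brighter probe, of which 4 spots were marked. Its other probe was at -0.06, 0.39 and 0.40 in knockout and 0.39, 0.49 and 0.28 in wild type, with a log2 change of -0.16 ± 0.22 (SE, n = 2 and 2). With 2 unmarked knockout arrays, leaving out knockout replicate 1 turned the change to 0.07, and leaving out knockout replicate 3 to -0.40. Acot8, the peroxisomal enzyme with the broadest choice of substrates, was at 2.25, 2.50 and 2.26 in knockout and 2.63, 2.43 and 2.31 in wild type. With all spots kept its log2 change was -0.12 ± 0.16 (SE, n = 3 and 3), with wild-type replicate 1 highest and marked.

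**Figure D3:**
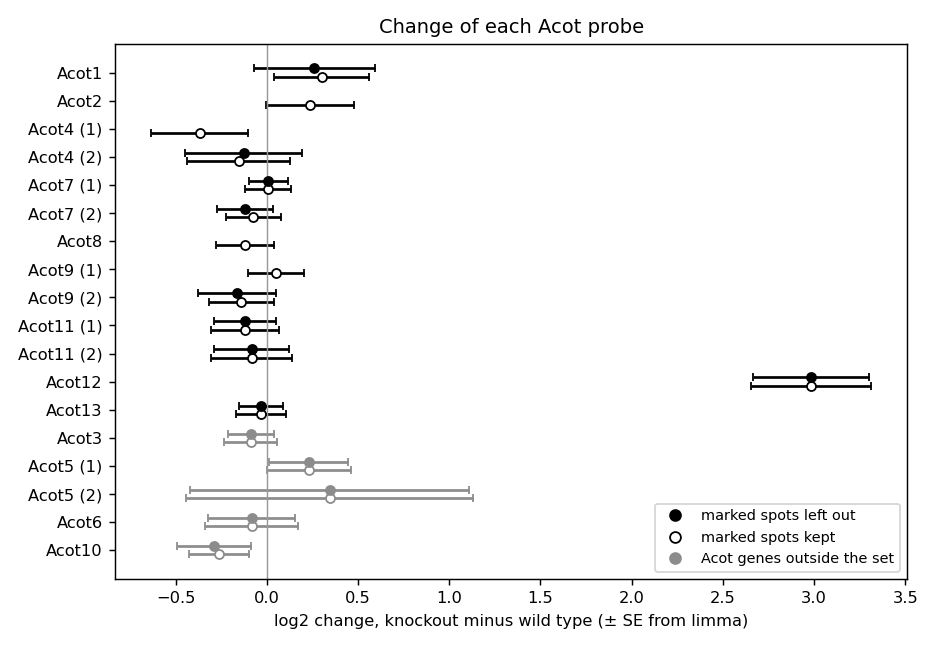
Log2 change, knockout minus wild type, with its SE from limma (horizontal axis) for every member probe (black) and for the probes of the 4 remaining Acot genes above background on at least 3 arrays (grey). Filled points leave out marked spots and open points keep them, and (1) and (2) are the brighter and dimmer probe of a gene. Acot12 lies at 2.98 and every other member probe lies between -0.37 and 0.30.

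The array also held 4 Acot genes outside the set, which lay in the same range as the flat members. Acot5 and Acot6, which like Acot3 are peroxisomal type I enzymes of the chromosome 12 group, stood at 0.23 ± 0.22 and -0.08 ± 0.24 in log2 change, and Acot3 at -0.09 ± 0.13 (SE, n = 3 and 3). Their arrays differed in order: Acot5 was highest on knockout replicate 3, at -1.69 against -2.47 to -1.96 on the other arrays, Acot6 was lowest there, at -4.77, and highest on knockout replicate 1, at -3.86, and Acot3 was highest on wild-type replicate 1, at 1.25. Acot10, a mitochondrial relative of Acot9, was at -0.04, -0.43 and -0.04 in knockout and 0.13, 0.17 and -0.02 in wild type, which do not overlap. Non-overlap in either direction was seen for 16.3% of all features, and the log2 change of Acot10 was -0.29 ± 0.20 (SE, n = 2 and 2).

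Genes that act before and after the thioesterases gave no call in either direction. Over 8 lists with 102 genes, 71 genes were measured and 0 passed an adjusted p of 0.05 (limma, smallest adjusted p = 0.267). Of all features only 0.208% passed, so a count of 0 among 71 genes says little about them. At an unadjusted p under 0.05, 7 were higher and 3 lower in knockout epithelium, against 3.18% and 7.55% of all features. Their median log2 change was 0.02, with 38 of 71 above 0, beside -0.06 and 38.5% for all features. With marked spots kept, 96 genes were measured and again 0 passed.

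Acyl-CoA synthetases, which make the substrate of the thioesterases, had a median log2 change of 0.08 over 14 measured genes of 18, with 1 gene higher and 0 lower at an unadjusted p under 0.05. That gene was Acsf2, a medium-chain synthetase, at 2.21, 2.09 and 2.13 in knockout and 1.75, 1.81 and 1.98 in wild type. Its groups did not overlap, with a log2 change of 0.30 ± 0.12 (SE, n = 3 and 3, adjusted p = 0.439), or 0.61 ± 0.33 when its probes were averaged. Slc27a2 and Slc27a4, fatty acid transport proteins with synthetase activity, were at 0.39 ± 0.27 and 0.19 ± 0.12, and Acsm1 at -0.21 ± 0.12. Acyl-CoA binding proteins, which carry the substrate, had a median of -0.03 over 4 measured genes of 6, with Dbi at -0.05 ± 0.13, a sign that turned under normexp.

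Other enzymes that release or degrade coenzyme A had a median log2 change of -0.04 over 9 measured genes of 12, with 1 higher and 2 lower at an unadjusted p under 0.05. Olah, a thioesterase that ends fatty acid synthesis, was at -3.78, -4.09 and -4.27 in knockout and -3.31, -3.27 and -3.81 in wild type. Those groups overlap by a small margin, and the log2 change was -0.58 ± 0.20 (SE, n = 3 and 3, adjusted p = 0.378). Hibch, the hydroxyisobutyryl-CoA hydrolase of valine breakdown, was at -0.30 ± 0.11 (SE, n = 3 and 3, adjusted p = 0.425). Ppt1, a lysosomal palmitoyl-protein thioesterase, was at 0.54 ± 0.20 (SE, n = 2 and 3, adjusted p = 0.433). That value was 0.03 when the probes of Ppt1 were averaged, 0.27 without knockout replicate 2 and 0.81 without knockout replicate 3.

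Mitochondrial fatty acid oxidation had a median log2 change of 0.01 over 10 measured genes of 17, with 0 at an unadjusted p under 0.05 (limma). Acads, the short-chain dehydrogenase on the path of butyrate, was at 0.18 ± 0.14 and Acaa2, a thiolase, at 0.14 ± 0.13. Peroxisomal oxidation had a median of 0.06 over 12 measured genes of 18, with 2 higher and 0 lower at an unadjusted p under 0.05. Acaa1b, a peroxisomal thiolase, was at 0.46 ± 0.15 (SE, n = 2 and 2, adjusted p = 0.401) and Pecr, a peroxisomal enoyl-CoA reductase, at -0.42 ± 0.17 (SE, n = 2 and 2).

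Genes that make or use acetyl-CoA, the substrate of Acot12, had a median log2 change of 0.10 over 9 measured genes of 14. At an unadjusted p under 0.05, 1 was higher, namely Pdk4. Acacb, the carboxylase that restrains mitochondrial import of fatty acids, was at -0.39, -0.10 and -0.16 in knockout and -1.07, -0.82 and -0.27 in wild type. Knockout replicate 1 lay below wild-type replicate 3, and the log2 change was 0.51 ± 0.22 (SE, n = 3 and 3, adjusted p = 0.468). Mlycd, which breaks down malonyl-CoA, was at 0.24 ± 0.16 (SE, n = 3 and 3). Pdk4, the kinase that shuts off acetyl-CoA supply from pyruvate, was at -0.68, -0.28 and 0.89 in knockout and at -2.90, -2.28 and -0.18 in wild type. Wild-type replicate 3 lay above 2 of the knockout arrays, and the log2 change of 1.76 ± 0.73 did not pass (SE, n = 3 and 3, adjusted p = 0.455). Replicate 3 was the highest array in each group. With the animal number series as a block the change was 1.76 ± 0.28 (SE, n = 3 and 3, limma adjusted p = 0.122). Why replicate 3 was high was not tested.

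Targets of PPAR receptors, among which Acot1 is usually counted, had a median log2 change of 0.36 over 10 measured genes of 15. At an unadjusted p under 0.05, 4 were higher and 1 lower. Lists can share genes, and Pdk4, already counted with the acetyl-CoA genes, is among the 4. Angptl4, an inhibitor of lipoprotein lipase, was at -0.26, 0.43 and 0.41 in knockout and at -0.85, -0.90 and -0.41 in wild type. Its groups did not overlap, and the log2 change was 0.91 ± 0.23 (SE, n = 3 and 3, adjusted p = 0.267). Cidec, a lipid droplet protein, was at -0.94, -0.48 and -0.01 in knockout and at -1.54, -1.70 and -1.15 in wild type, a log2 change of 0.98 ± 0.26 (SE, n = 3 and 3, adjusted p = 0.28). Cyp4a14, a fatty acid hydroxylase, lay the other way at -0.44 ± 0.16 (SE, n = 3 and 3, adjusted p = 0.405).

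The order of the knockout arrays seen in Acot1, Acot2 and Acot4 was found in part of this list. Among the knockout arrays, replicate 1 was lowest and replicate 3 highest for 9 of the 13 member probes and for 6 of the 10 PPAR targets, against 20.4% of all features. The same order held for 5 of 14 acyl-CoA synthetases, 4 of 10 mitochondrial oxidation genes and 4 of 9 acetyl-CoA genes. It held for 2 of 12 peroxisomal oxidation genes, 2 of 6 receptor genes, 1 of 4 binding proteins and 1 of 9 other coenzyme A enzymes. The order is thus not particular to PPAR targets. Knockout replicate 3 was the highest of all 6 arrays for 4 of the 10 targets, among them Pdk4, Cidec and Creb3l3, against 11.9% of all features. It was also highest for 4 of 5 measured colonic epithelium markers, 4 of 9 acetyl-CoA genes and 4 of 14 synthetases. For the 7 measured hepatocyte markers and the 9 other coenzyme A enzymes the count was 0. Wild-type arrays differed between these targets and the members: wild-type replicate 3 was the highest wild-type array for Pdk4, Cidec and Angptl4 but not for Acot1 or Acot2. Ppara, the receptor itself, was at 0.29, 0.73 and 1.03 in knockout and 0.38, 0.20 and 0.50 in wild type, a log2 change of 0.32 ± 0.20 (SE, n = 3 and 3, adjusted p = 0.619). The Ppara value was 0.52 with knockout replicate 1 left out and 0.15 with knockout replicate 3 left out. Pparg, Ppard and Hnf4a were at -0.16 ± 0.14, -0.15 ± 0.18 and -0.12 ± 0.16.

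**Figure D4:**
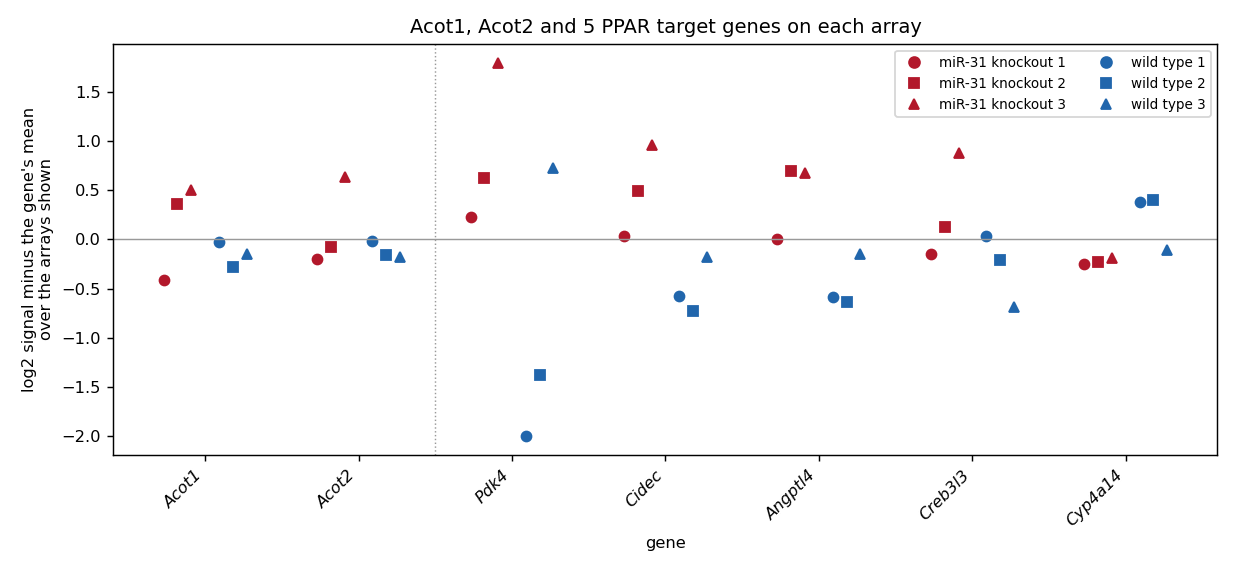
Log2 signal on each array minus the mean of the gene over the arrays shown (vertical axis), for Acot1 and Acot2 with all spots (left of the dotted line) and for the PPAR target genes Pdk4, Cidec, Angptl4, Creb3l3 and Cyp4a14 without marked spots, in order of log2 change. Knockout arrays (red) stand left of wild-type arrays (blue). Knockout replicate 3 (red triangle) is highest for Acot1, Acot2, Pdk4, Cidec and Creb3l3, and wild-type replicate 3 (blue triangle) lies above 2 knockout arrays for Pdk4.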

How the data were processed

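Gene expression was measured on 6 one-colour Agilent arrays, 3 miR-31 knockout and 3 wild type, grouped by the genotype label. The deposited scanner files hold the intensity of each spot, background-subtracted and detrended per the file headers, where the software is Feature Extraction 11.5.1.1. Version 10.7 is the one in the submitters' processing notes. Marks for each spot (other values of 0 or 1) were deposited with it. The deposited value table of the series holds the same intensity per probe. Set against the scanner files, 99.7% of its entries differed by under 0.01 in log2, so scale and direction are known and no centring was found. Its column medians were 262, 230 and 243 in knockout replicates 1 to 3 and 232, 236 and 249 in wild-type replicates 1 to 3.

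The processed intensity was taken as log2 minus the 75th percentile of each array over 59305 non-control spots. Marked spots (4.95% to 17.3% per array) were left out, and spots of a probe were averaged. Probes needed 3 arrays well above background and 2 unmarked arrays per group, and the brightest such probe stood for a gene, which left 27916 features. Symbols came from the RefSeq table of GRCm38.p6 (33767 of 56605 probes), used only for names, chromosomes and gene order, since the array design names mm9. Start regions and microRNAs are RefSeq sequences of that build. Groups were compared with limma 3.58.1 (two-sided, no covariate, R 4.3.3, statmod 1.5.0, version 1.17.8 of data.table), with Benjamini-Hochberg adjustment over all features, after a check on simulated data. Values of members are per probe from the same model fitted to all probes. Nothing says more of the samples than 1 mouse each, and their number limits the precision.

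The members and lists were chosen with earlier results of these data known. Named were all 9 members, the pathway genes with the smallest unadjusted p (up to 4 per list), and the 3 genes most like a member whose groups did not overlap. A few genes of the lists are counted but not reported here by name. Creb3l3, the neighbouring genes, the further Acot genes, the order of arrays, the SD ratio and the sums without Afm were looked at after the data were seen. The planned normexp setting used the median spot signal, as the mean spot signal was not used here.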

Additional observations from a re-analysis of the deposited data

How the results depend on the processing

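The number of Acot members past the threshold, 1, was also found under 9 of the 10 alternatives that kept all arrays, and was 0 without the filter on dim probes. With 1 array left out it ranged from 0 to 1. The log2 change of Acot12, 2.98, was 1.15 with normexp on the median signal and local background and then quantile scaling, 2.92 to 3.11 under the other alternatives with all arrays, and 2.73 to 3.23 with 1 array left out. Members tested numbered 7, and 9 with the marked spots kept. The pathway lists gave 0 calls throughout. Over all features 58 were called, against 90 with normexp, 35 without the filter, 106 with trend and robust variance, 105 with array weights and 22 to 116 with 1 array left out. Pathway genes at an unadjusted p under 0.05 numbered 10, against 5 without the filter, 6 when the probes of a gene were averaged and 2 to 12 with 1 array left out. Log2 changes moved by over 1.5 times or turned in sign for 18 of 31 named pathway genes with 1 array left out and for 20 in at least 1 alternative with all arrays. Of the 31, 5 changed sign in at least 1 alternative, none of them called. With normexp Acbd4 was at 0.04 (main value -0.01), Acbd5 at -0.02 (main value 0), Dbi at 0.04 (main value -0.05) and Eci1 at 0.03 (main value -0.07). Acbd4 was also at 0.01 with averaged probes and 0.05 with array weights, and Acbd5 at 0 with quantile scaling or marked spots kept, turning sign within rounding. With 1 array left out Acbd4 ranged from -0.16 to 0.13, Acbd5 from -0.08 to 0.09, Acbd6 (main value -0.17) from -0.36 to 0.01, and Dbi from -0.13 to 0.02. The cause of these shifts was not tested. The animal number series as a block and the slide column as a random block each gave 1 call among the members. Each row of the slide holds 1 genotype, so row and genotype cannot be told apart. These blocks mark number series and slide columns and do not pair the mice. No paired analysis was possible by replicate because the labels give no replicate numbers shared between the groups.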
